A study of Mus musculus with 354 samples.

Results

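The major histocompatibility complex (MHC) class II genes and Cd74 were followed in the livers of tolvaptan-treated and Control mice of the Collaborative Cross, a panel of inbred strains bred from several founder strains. The 6 genes are Cd74, H2-Aa, H2-Ab1, H2-Eb1, H2-DMa and Ciita. They were taken by symbol, through 11 probe sets annotated to 1 of these symbols alone, of 42597 probe sets on the array and 16670 genes with a probe set of their own. Liver RNA came from 354 male mice of 45 strains, 1 Affymetrix HT_MG-430 PM array per mouse. Of these, 179 were Control animals, given vehicle, and 175 were given tolvaptan, a vasopressin V2 receptor blocker whose liver toxicity the study concerns. Livers were taken 24 h after treatment. The animals form 90 groups by strain and treatment, of which 85 have 4 animals each, 4 have 3 and 1 has 2. Mice of both groups were dosed at an age of 8 to 10 weeks, after roughly 7 days of acclimation, and went without food for some 18 h before the livers were taken. No dose is stated here because its label carries no unit. The RNA came from diced tissue of the median lobe, so every value mixes hepatocytes with blood and immune cells.

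MHC class II molecules present peptides from endocytosed protein to CD4 T cells. An alpha and a beta chain pair in the endoplasmic reticulum with the invariant chain encoded by Cd74, which blocks the groove until endosomal proteases remove it, and the DM heterodimer then exchanges the remaining fragment for a peptide. H2-Aa and H2-Ab1 encode the chains of the mouse I-A molecule, H2-Eb1 encodes the beta chain of I-E, and H2-DMa encodes the alpha chain of DM. Ciita encodes the class II transactivator, which does not bind DNA itself but is recruited by factors on conserved promoter elements, the X and Y boxes. In liver the main class II expressing cells are Kupffer cells, dendritic cells and B cells, with lower amounts on sinusoidal endothelium, and interferon gamma raises the genes in many other cells.

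The sequences before the starts of 3 chain genes are shown because class II promoters are known for these elements. Not every gene searched matched the fixed letters given below. A missing match does not show that the element is absent, because elements that differ from these letters were not searched. RefSeq promoters, on GRCm38.p6, were at hand for H2-Aa, H2-Eb1 and H2-DMa among the members. H2-DMb1, the gene of the beta chain that pairs with the H2-DMa product, is printed as well. Both strands of the 250 bases before each start were searched for AGNNAC, any base and then GATG, an X box core, and for ATTGG, the CCAAT core of a Y box. The printed stretches are the last 130 bases before the start, 5′ to 3′ on the gene's strand, with matches in capitals.
H2-Aa, chr17:34287824-34287953, minus strand: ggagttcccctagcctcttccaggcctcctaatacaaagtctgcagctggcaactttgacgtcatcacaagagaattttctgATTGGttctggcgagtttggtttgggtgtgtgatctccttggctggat
H2-Eb1, chr17:34305737-34305866, plus strand: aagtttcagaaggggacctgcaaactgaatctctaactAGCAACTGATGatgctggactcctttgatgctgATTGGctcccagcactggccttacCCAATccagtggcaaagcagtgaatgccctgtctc
H2-DMb1, chr17:34153061-34153190, plus strand: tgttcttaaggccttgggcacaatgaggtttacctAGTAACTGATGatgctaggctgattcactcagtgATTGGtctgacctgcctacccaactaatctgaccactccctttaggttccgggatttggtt

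H2-Eb1 held the X box letters from 92 bases before its start, the Y box letters from 59 bases before it, and a reverse-strand match of the latter from 35 bases before it. H2-DMb1 had the same order, from 95 and 61 bases before its start. H2-Aa held the Y box letters from 48 bases before its start and had no match to the X box letters in this window. Of 32851 mouse promoters of the same length, 0.816% held the X box letters, 33.8% the Y box letters and 0.292% both. H2-DMa, whose sequence is not printed, has 2 annotated starts, and neither window held the X box letters. Among the other class II chain genes searched, H2-Oa and H2-Eb2 held the letters of both boxes. H2-DMb2 and H2-Ob held those of the Y box only. These matches describe letters, not binding, and class II alleles of the panel's founders can differ from the reference printed here.

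The values are log2 signals, so that a difference of 1 is a doubling, and the level of a probe set cannot be set against that of another. In Control livers, Cd74 (probe set 1425519_PM_a_at) lay at 6.22 ± 0.77 (SD, n = 179) and H2-Aa (1452431_PM_s_at) at 6.35 ± 0.99. H2-Ab1 (1450648_PM_s_at) lay at 7.90 ± 1.27, H2-Eb1 (1417025_PM_at) at 6.52 ± 1.88 and H2-DMa (1459872_PM_x_at) at 7.06 ± 0.80. Ciita (1421210_PM_at) lay at 2.31 ± 0.27. The array medians ran from 2.81 to 3.02. Cd74, H2-Aa and H2-DMa were above the array's median in 354 of 354 arrays, H2-Ab1 in 352 and H2-Eb1 in 348, whereas Ciita was above it in only 7. Of the 11 probe sets, 10 passed the filter on dim signals, which required a signal over the median of the array in 4 or more arrays, and the Ciita probe set 1447075_PM_at did not. Ciita therefore entered through few arrays, and its values below carry little information on the transactivator.

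Several facts of the whole series bear on the members. Over 500 probe sets that best separate the strains, 34 arrays, spread over 19 strains, did not resemble the arrays sharing their strain label. Their correlation with these was at most 0.325, and that of the other 320 arrays was at least 0.649. They are called off their strain below. Of the 34, 27 carry a Control label and 7 a tolvaptan label, and 22 fall in scan 2, the second of 6 scan dates. The tissue label was borne out by the hepatocyte gene Alb, at 13.29 to 13.87 in every array. Kupffer cell and endothelial markers such as Clec4f and Stab2 were above the array's median in 354 of 354 arrays. B cell and dendritic cell markers were mostly dim: 8 of 13 measured B cell markers and 6 of 9 dendritic cell markers lay under the median in most arrays. Of B cell markers, Cd79a was above it in 346 arrays and Ms4a1 in 25. Of dendritic cell markers, Flt3 was above it in 92, Itgax in 33 and Xcr1 in 0. In bulk liver, fewer cells of a type and less RNA per cell cannot be told apart.

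Strain set the level of the class II genes in Control livers over a wide range, and all members but H2-Eb1 followed a similar order of strains. These levels were among the values that chose the members and are given as a description. For Cd74, the invariant chain, strain means ran from 5.11 ± 0.74 (SD, n = 4) in OR13067, through 6.11 for the median strain, to 7.61 ± 0.40 (n = 4) in OR5612, a 5.67-fold range. The OR13067 animals include 2 arrays off their strain, and without them its mean was 5.68. IL16012 and AU8049 came next from below, at 5.22 and 5.24, and AU8052 and OR13140 next from above, at 7.55 and 7.43. Neighbours in this order did not differ beyond their spread: in 0 of 44 neighbouring pairs did the intervals of mean ± SD stay apart.

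The I-A chains spread further. H2-Aa, the alpha chain, ran from 4.96 ± 0.38 in AU8049 to 8.35 ± 0.45 (n = 3) in AU8052, a 10.5-fold range. H2-Ab1, its partner, ran from 5.96 ± 2.75 in AU8024 to 9.71 ± 0.40 in OR5612, a 13.5-fold range. The SD in AU8024 comes from animal 64 at 1.95, while its highest Control animal reached 7.95. Without the arrays off their strain the H2-Ab1 range became 32.1-fold, because 2 animals then remain in AU8024. H2-DMa, the peptide exchange subunit, ran from 6.10 ± 0.68 in IL16513 to 8.23 ± 0.47 (n = 3) in AU8052, a 4.37-fold range. Ciita ran from 1.97 ± 0.16 in OR3609 to 2.84 ± 0.39 in OR5612, under the typical array median of 2.89 throughout.

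AU8052 was among the 3 highest strains for each of the 6 members, with OR13140 also among them for Cd74, H2-Aa, H2-Ab1, H2-Eb1 and H2-DMa. AU8046 was among the 3 lowest for H2-Aa, H2-Ab1 and H2-DMa. Across the 45 Control strain means, Pearson's r was 0.91 for Cd74 with H2-Aa and with H2-Ab1, 0.84 for Cd74 with H2-DMa and 0.69 for Cd74 with Ciita. These points share arrays and normalization, and the coefficients are descriptions. Strain accounted for 68.4% of the Control variance of Cd74, 58.1% of that of H2-Aa and of H2-Ab1, 50.5% of that of H2-DMa and 46.5% of that of Ciita. The median over all 14125 genes that passed the filter was 39.6%. With the arrays off their strain left out, these shares were 80.9%, 73.6%, 74.9%, 60.2% and 52.8%, and the median of all genes was 48.2%.

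**Figure D1:**
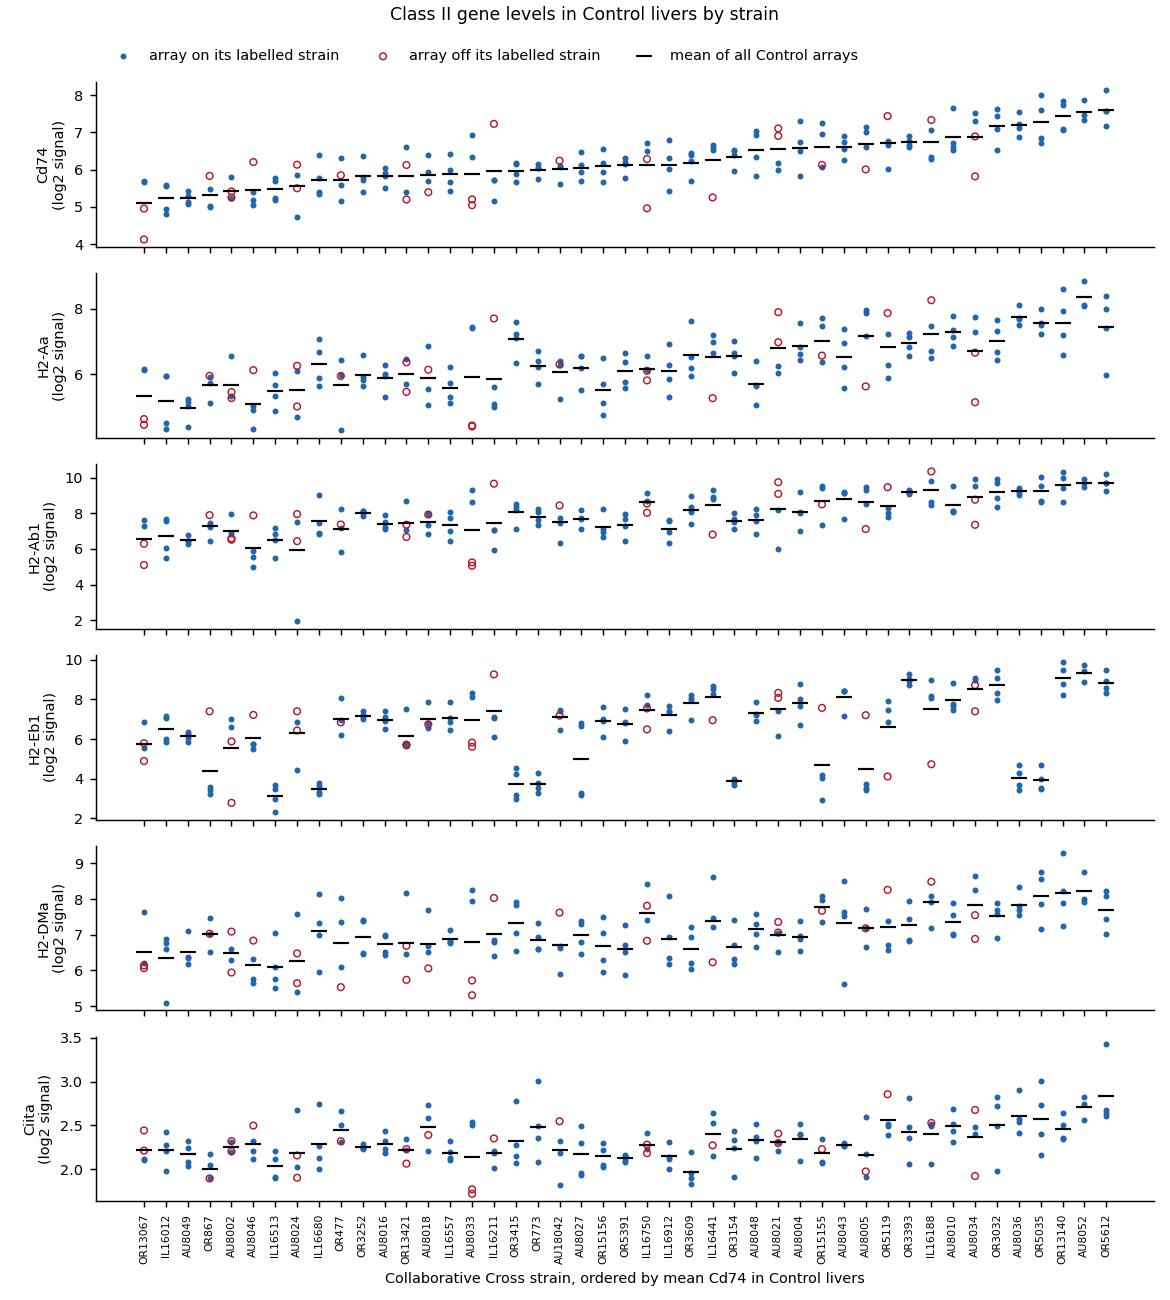
Log2 signal of the 6 genes in every Control liver (points), with the mean of each strain (black bar). Strains are ordered by mean Cd74, from 5.11 to 7.61. Hollow red points are arrays off their labelled strain. H2-Aa, H2-Ab1 and H2-DMa climb with Cd74, while H2-Eb1 drops to about 3 to 4 in strains all along the axis.

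H2-Eb1, the I-E beta chain, did not follow the other members but took a low or a high level by strain. In 10 strains (IL16513, IL16680, OR773, OR867, OR5035, OR3415, OR15155, AU8005, OR3154 and AU8036) every array on its strain, of either treatment, lay below 5, between 2.31 and 4.79. In 31 strains every such array lay at or above 5. The remaining 4 strains, AU8033, AU8027, OR5119 and AU8024, had animals on both sides. Outside AU8027, the only such arrays below 5 in these strains were animals 87 of AU8033 (4.19), 64 of AU8024 (4.45) and 367 and 368 of OR5119 (4.87 and 4.62). These animals stood apart in several genes, as described below. This limit of 5, and the limit of 4.2 used for H2-Ea, were set after the values were seen. Median H2-Eb1 ran from 3.32 to 4.31 in the 10 low strains and from 5.62 to 9.57 in the other 35. The same 10 strains were not low for the I-A alpha chain: their median H2-Aa ran from 5.32 to 7.78, against 4.77 to 8.21 in the others. OR5035 combined low H2-Eb1, at 3.92 ± 0.56 (SD, n = 4) in Control livers, with the fourth highest Cd74, at 7.29 ± 0.61, and AU8036 had H2-Eb1 at 4.01 ± 0.57 and the second highest H2-Aa, at 7.76 ± 0.26. Strain accounted for 79.0% of the Control variance of H2-Eb1, and its r with Cd74 over strain means was 0.40 and with H2-Aa 0.19.

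H2-Ea, which encodes the alpha chain that pairs with the H2-Eb1 product, also took a low or a high level. On its probe set 1422892_PM_s_at, 26 strains had every array on its strain between 1.60 and 4.08, with medians of 1.90 to 2.57, around or under the array median. In 15 strains every such array exceeded 4.2, with medians from 5.82 to 9.22. The same 4 strains as for H2-Eb1 were mixed. Outside AU8027, the only such arrays below 4.2 in them were again animals 87, 64, 367 and 368, at 1.95, 2.29, 3.33 and 2.93. The states of the I-E chains were not the same: of the 10 strains with low H2-Eb1, 7 had high H2-Ea and 3 (AU8036, OR15155 and OR867) had low H2-Ea. The second H2-Ea probe set, 1422891_PM_at, had r of 0.97 with it over Control means and a smaller step, at 3.41 to 5.78 in the 26 strains and 5.02 to 8.96 in the 15. Whether these levels reflect transcripts or sequence under the probes was not tested, and genotypes at the MHC were not analysed here.

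In AU8027, a strain with no array off its label, the I-E chains split the animals. H2-Ea was 7.24, 7.21 and 8.00 in Control animals 303 and 304 and tolvaptan animal 308, and H2-Eb1 was 3.29, 3.16 and 3.94 in them. In Control animal 302 and tolvaptan animals 305, 306 and 307 H2-Ea was 1.94, 2.29, 1.90 and 2.14, and H2-Eb1 was 6.66, 7.23, 7.89 and 9.09. Control animal 301 was high for both, at 6.84 and 6.79. Each animal was thus low for H2-Ea, low for H2-Eb1 or high for both, and no animal of AU8027 was low for both. The other members did not divide the 8 animals in this way, with Cd74 between 5.68 and 7.01 and H2-Aa between 5.51 and 7.48. The low H2-Eb1 animals are 2 of 4 in Control and 1 of 4 with tolvaptan. AU8027 had the highest fitted H2-Eb1 difference of all strains, 2.06 ± 0.64 (SE), against 0.51 ± 0.36 for Cd74. Among the 34 arrays off their strain, 14 lay more than 1 outside the range of their strain's other arrays for H2-Eb1 or H2-Ea. The probe sets of both genes are among the 500 of the strain check, so that this count is not independent of it. None of the probe sets of the other 5 members is among them.

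**Figure D2:**
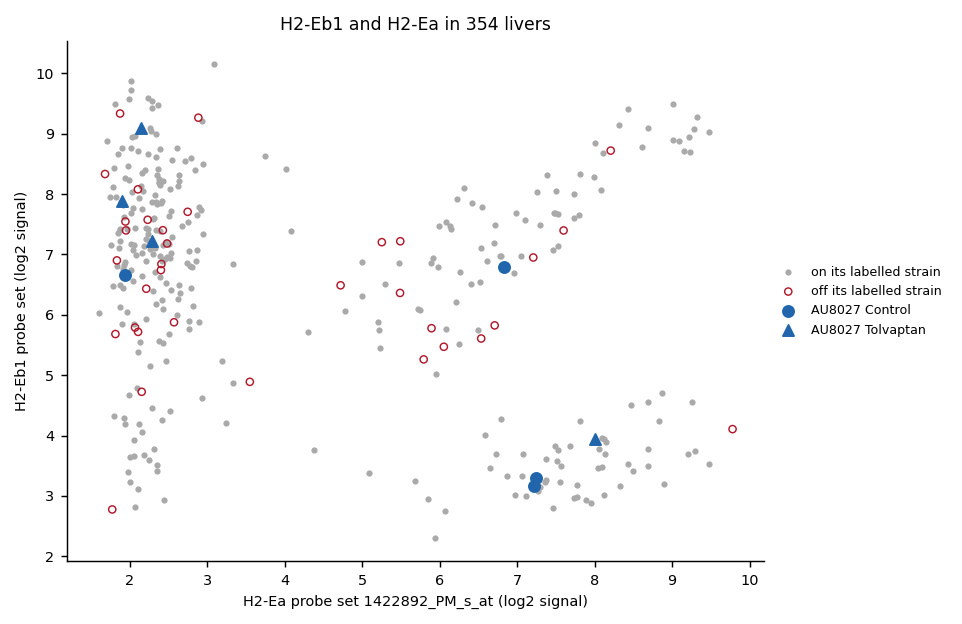
H2-Eb1 (vertical) against H2-Ea probe set 1422892_PM_s_at (horizontal), log2 signals of 354 livers, 1 point per animal. Points fall into a high-Eb1, low-Ea column on the left, a low-Eb1, high-Ea group at lower right, a group high for both and a smaller group low for both. The 8 AU8027 animals (blue) lie in 3 of these areas, and hollow red points are arrays off their labelled strain.

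The probe sets of a gene were compared for signs that sequence variants change a signal. For H2-Ab1, the 3 probe sets ordered the strains alike, with r of 0.96 between each pair over 45 Control means and 0.86 to 0.87 between residuals of 354 arrays after strain, treatment and scan were removed. Their step relative to each other still varied between strains. The Control mean of 1451721_PM_a_at minus that of 1450648_PM_s_at ran from -2.41 in OR3393 to -0.55 in AU8024, and that of 1425477_PM_x_at minus 1450648_PM_s_at from -3.10 in IL16513 to -1.66 in AU8046. The AU8024 value rests on animal 64, in which 1450648_PM_s_at fell to 1.95 while 1451721_PM_a_at stayed at 4.51. For H2-DMa, 1459872_PM_x_at and 1422527_PM_at had r of 0.95 over Control means and 0.82 over residuals. For Ciita, the 2 probe sets that passed the filter had r of 0.58 and 0.28. Cd74, H2-Aa and H2-Eb1 have 1 probe set each, so that no such comparison could be made for them.

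On average over the 45 strains, the members were slightly lower with tolvaptan, by less than their spread between animals. This contrast was used to choose the members, so its values are a description with no test. Cd74 lay at 6.13 ± 0.78 (SD, n = 175) with tolvaptan and 6.22 ± 0.77 in Control, a fitted averaged difference of -0.094 ± 0.055 (SE). The averaged difference was -0.11 ± 0.08 for H2-Aa, -0.16 ± 0.10 for H2-Ab1, -0.065 ± 0.097 for H2-Eb1, -0.040 ± 0.065 for H2-DMa and -0.025 ± 0.025 for Ciita. The difference was positive in 22, 19, 20, 19, 22 and 22 of 45 strains for Cd74, H2-Aa, H2-Ab1, H2-Eb1, H2-DMa and Ciita. The sign depended on the arrays used. In the earliest scan alone, which holds 1 animal per strain and treatment, the differences were 0.054 for Cd74, 0.18 for H2-Ab1 and 0.17 for H2-DMa. Among the 26 strains whose arrays all matched the label they were -0.19 ± 0.06 for Cd74, -0.24 ± 0.09 for H2-Aa and -0.32 ± 0.11 for H2-Ab1.

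The fitted differences of single strains had both signs. Fitted differences for Cd74 ran from -1.67 in OR5119 to 1.19 in OR13421, with a median of -0.007, and were negative in 23 of 45 strains. In 9 strains the Cd74 difference exceeded 2 times its SE. This count was 4 for H2-Aa, 5 for H2-Ab1 and for H2-Eb1, 7 for H2-DMa and 3 for Ciita. For these other members, limma's F test of strain dependence gave adjusted p from 0.449 to 0.863 with all arrays. Without the arrays off their strain, the adjusted p of that F test was 0.0329 for H2-Ab1 and for H2-Eb1. H2-Ab1 ran from -2.91 in OR5119 to 1.70 in OR13421, H2-Aa from -1.66 to 1.10 in the same strains, and H2-DMa from -1.09 in OR5119 to 1.01 in OR477. H2-Eb1 ran from -1.49 in AU8033 to 2.06 in AU8027, and Ciita from -0.37 in OR3032 to 0.34 in OR5391. With the arrays off their strain left out, H2-Ab1 ran from -3.47 in AU8033 to 3.10 in AU8024. H2-Aa ran from -1.99 to 1.32 and H2-DMa from -1.72 to 0.92 in the same strains. H2-Eb1 ran from -2.63 in AU8033 to 2.06 in AU8027. The AU8033 and AU8024 values include tolvaptan animal 87, with H2-Ab1 at 2.46, and Control animal 64, with H2-Ab1 at 1.95. The members moved together across strains, with r of 0.93 for Cd74 with H2-Aa, 0.95 with H2-Ab1, 0.85 with H2-DMa, 0.75 with H2-Eb1 and 0.36 with Ciita over the 45 differences. Leaving out the arrays off their strain, r with H2-Eb1 was 0.90, with animals 64 and 87 still included. The members were selected on their Control levels, averaged differences and strain differences, so these values are a description and no test.

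**Figure D3:**
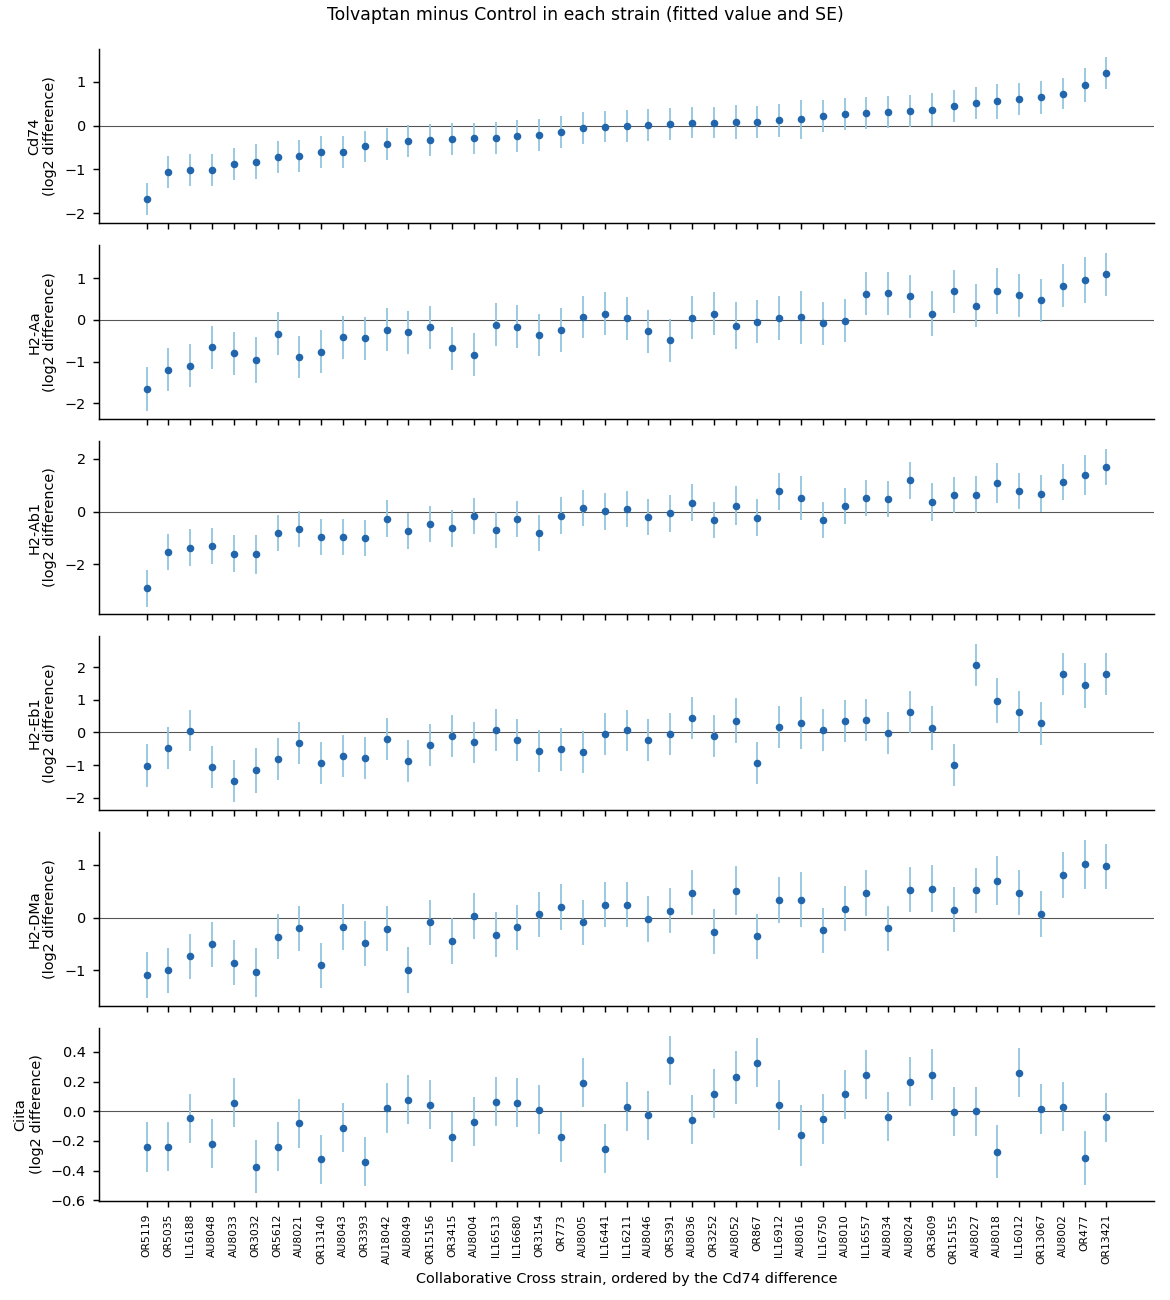
Fitted tolvaptan minus Control difference (log2) of the 6 genes in each of 45 strains, with its SE (bars). Strains are ordered by the Cd74 difference, from -1.67 in OR5119 to 1.19 in OR13421. H2-Aa, H2-Ab1 and H2-DMa rise along the same order, H2-Eb1 does so less evenly, and Ciita stays within -0.37 and 0.34.

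OR5119 had the lowest Cd74 difference. Its 4 Control animals lay at 6.03, 6.66, 6.78 and 7.44, and its 4 tolvaptan animals at 4.72, 4.92, 5.10 and 5.36. The groups did not overlap, also without the Control animal at 7.44, which is off its strain. H2-Ab1 was 7.77, 7.99, 8.31 and 9.46 in Control and 3.71, 5.01, 7.07 and 7.35 with tolvaptan, again without overlap. OR5119 was named for its Cd74 difference, as was IL16188 below, so a lack of overlap in them is no test. The share of all genes without overlap was not counted. The fitted differences were -1.67 ± 0.37 (SE) for Cd74, a 3.19-fold lower signal, -1.66 ± 0.52 for H2-Aa, -2.91 ± 0.70 for H2-Ab1, -1.01 ± 0.65 for H2-Eb1 and -1.09 ± 0.44 for H2-DMa. Several marker lists had negative differences beside the members, without a test. Of 14 Kupffer cell and macrophage markers 11 had a negative difference, with a median of -0.40, and of 13 sinusoidal endothelium markers 10 did, with a median of -0.35. The median was -0.12 for dendritic cell markers, -0.080 for T and NK cell markers, -0.060 for B cell and for monocyte markers, -0.030 for hepatocyte markers and 0.38 for the 5 bile duct markers, of which 3 were positive. The array means of the Kupffer cell list ran from 6.21 to 6.88 in Control and from 5.91 to 6.69 with tolvaptan. They were 6.69 and 6.59 in tolvaptan animals 365 and 366, and 5.91 and 6.27 in animals 367 and 368. For the sinusoidal endothelium list these animals had 6.47, 6.56, 6.31 and 5.91, against 6.42 to 6.71 in Control. The part of these markers in the class II values of OR5119 was not tested. Of 14125 genes, 140 were called higher and 129 lower with tolvaptan in OR5119 with all arrays. In the other named strains these counts ran from 0 and 0 in AU8027 to 44 and 36 in AU8024. Without the arrays off their strain they were 134 and 158 in OR5119, and 308 and 193 in AU8033. The class II genes were thus not alone in differing in OR5119.

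OR5035, a strain with low H2-Eb1 and no array off its label, had a Cd74 difference of -1.05 ± 0.36. Cd74 was 6.71, 6.86, 7.60 and 8.01 in Control animals and 5.98, 6.0, 6.12 and 6.85 with tolvaptan. The groups overlapped through tolvaptan animal 248, at 6.85, while the other three lay below every Control animal. H2-Aa was -1.19 ± 0.52, H2-Ab1 -1.53 ± 0.69 and H2-DMa -1.0 ± 0.43 in the fitted differences. H2-Eb1, already low in Control at 3.49 to 4.70, differed by -0.47 ± 0.64. Kupffer cell markers differed little, with 9 of 14 negative and a median of -0.10, and their array means overlapped, at 6.57 to 6.93 and 6.53 to 7.01. Of 13 sinusoidal endothelium markers 10 were negative with a median of -0.090, and Stab2 differed by -1.01 ± 0.24. Of 13 B cell markers 11 were negative with a median of -0.16.

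IL16188 was the third lowest with all arrays. Its Cd74 values were 6.29, 6.33, 7.07 and 7.33 in Control and 5.36, 5.59, 6.0 and 6.01 with tolvaptan, without overlap. The highest Control animal, 141, is off its strain, and without it the Cd74 difference was -0.82 ± 0.34 in place of -1.02 ± 0.36. That animal had H2-Eb1 at 4.72, while the other 3 Control animals had 8.08 to 9.0. The H2-Eb1 difference was 0.060 ± 0.64 with it and -0.84 ± 0.54 without it, so that this 1 array set the sign for that gene. Of 14 Kupffer cell and macrophage markers 12 were negative in IL16188, with a median of -0.28, and of 13 sinusoidal endothelium markers 9 were, with a median of -0.15. Without animal 141 these were 10 of 14 with a median of -0.17 and 11 of 13 with a median of -0.30. The part of these markers in the class II values was not tested.

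OR13421 had the highest Cd74 difference, 1.19 ± 0.36, a 2.28-fold higher signal. Control animals lay at 5.20, 5.41, 6.13 and 6.62, and tolvaptan animals at 6.27, 6.91, 7.44 and 7.49, so that the groups overlapped through 1 Control animal. Control animals 111 and 112, at 5.20 and 6.13, are off their strain, and the difference without them was 1.02 ± 0.38. H2-Eb1 was 5.68, 5.72, 5.76 and 7.53 in Control and 7.34, 7.86, 8.27 and 8.41 with tolvaptan. All 13 sinusoidal endothelium markers had a positive difference with all arrays, with a median of 0.35, and 9 of 13 had one without the arrays off their strain, with a median of 0.15. Stab2 differed by 0.89 ± 0.24. T and NK cell markers were positive in 9 of 11, with a median of 0.21. The array means of the Kupffer cell list overlapped, at 6.07 to 6.29 in Control and 6.23 to 6.59 with tolvaptan.

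OR477 and AU8002 followed. In OR477, Cd74 was 5.16, 5.60, 5.85 and 6.31 in Control and 6.11, 6.85 and 7.00 in its 3 tolvaptan animals, a difference of 0.92 ± 0.39. H2-Ea differed by 1.64 ± 0.42 with all arrays, and by 1.11 ± 0.40 without Control animal 31, which is off its strain and had H2-Ea at 2.41 on probe set 1422892_PM_s_at where the other animals had 6.22 to 9.08. The tolvaptan animals overlapped the Control animals through the value of 6.11. Of 14 Kupffer cell markers 13 were positive, with a median of 0.39, and 12 with a median of 0.15 without animal 31. T and NK cell markers were positive in 10 of 11, with a median of 0.36. In AU8002 the Cd74 difference was 0.73 ± 0.36. Its H2-Eb1 difference of 1.80 ± 0.64 became 0.71 ± 0.65 without its 3 arrays off their strain, of which Control animal 21 had H2-Eb1 at 2.77. The array means of the Kupffer cell list in AU8002 overlapped, at 5.95 to 6.79 in Control and 5.47 to 7.76 with tolvaptan. The highest value of each group came from an array off its strain.

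AU8033 and AU8024 entered the 3 lowest and 3 highest Cd74 differences only when the arrays off their strain were left out. For H2-Eb1, AU8033 had the lowest difference also with all arrays, at -1.49. In AU8033 the Control animals on their strain had Cd74 at 6.35 and 6.93, and those off it 5.04 and 5.20. Tolvaptan animals had 4.75, 4.8 and 5.84, and the array off its strain 4.62. The Cd74 difference was -0.88 ± 0.36 with all arrays and -1.50 ± 0.40 without those off their strain, where 2 Control animals remain. For H2-Ab1 the AU8033 difference was -1.60 ± 0.69 with all arrays and -3.47 ± 0.78 without those off their strain. It was -0.61 with all arrays but tolvaptan animal 87. Of 14 Kupffer cell and macrophage markers 11 were negative with all arrays, with a median of -0.24, and 12 without those off their strain, with a median of -0.66. Sinusoidal endothelium markers had medians of -0.12 and -0.41. In AU8024 the difference was 0.33 ± 0.36 with all arrays, 0.94 ± 0.40 without those off their strain, and 0.030 ± 0.39 without Control animal 64. The H2-Ab1 difference in AU8024 was 1.18 ± 0.69 with all arrays, 3.10 ± 0.78 without those off their strain, and -0.23 ± 0.69 without animal 64, so that this animal decided its sign. In AU8024, 12 of 14 Kupffer cell and macrophage markers were positive, with a median of 0.78 with all arrays and 0.56 without those off their strain. The part of the markers in both strains was not tested.

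**Figure D4:**
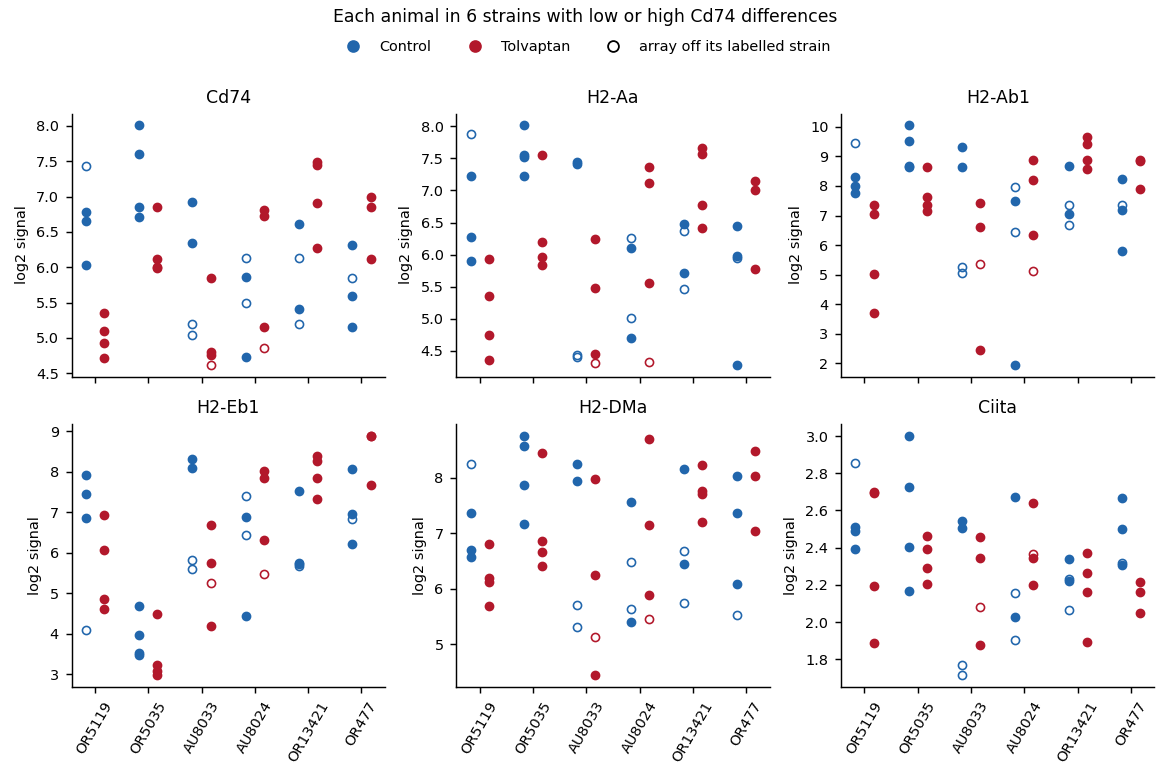
Log2 signal of the 6 genes in each animal of 6 strains, Control in blue and tolvaptan in red, 1 point per animal. Hollow points are arrays off their labelled strain. In OR5119 all 4 tolvaptan animals lie below all Control animals for Cd74, from 4.72 to 5.36, and in AU8024 Control animal 64 and in AU8033 tolvaptan animal 87 lie at 1.95 and 2.46 for H2-Ab1.

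Control animal 64 of AU8024 and tolvaptan animals 87 of AU8033 and 367 and 368 of OR5119 stood apart in several genes and were picked out after their values were seen. They were not chosen by a fixed limit. By the mean of the 6 members, tolvaptan animal 236 of OR3154, at 3.93, lay below 367 and 368, at 4.56 and 4.47, and was not picked. The values that follow are those of animals 64, 87, 367 and 368, in this order. H2-Ab1 was 1.95, 2.46, 5.01 and 3.71 in them, against a median of 7.87 over all 354 arrays, and Cd74 was 4.73, 4.75, 4.72 and 5.10, against a median of 6.11. Stab2, a scavenger receptor of sinusoidal endothelium, was 5.87, 5.92, 6.06 and 6.24, ranks 2, 3, 5 and 7 from below. Cd5l, a secreted Kupffer cell product, was 7.27, 7.31, 8.73 and 7.69, ranks 3, 4, 17 and 6. C1qa, a complement subunit made by macrophages, had ranks 24, 9, 16 and 12. Alb was 13.60 to 13.77 in them, within the range of the other arrays. Without these animals the Cd74 difference in OR5119 was -1.58 ± 0.45, resting on tolvaptan animals at 5.36 and 4.92, its H2-Ab1 difference was -1.61 ± 0.80, its H2-DMa difference -0.65 ± 0.52 and its H2-Eb1 difference -0.15 ± 0.79.

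Genes were ranked by the likeness of their pattern to the mean of the 6 members, as Pearson's r. Over 45 Control strain means, the 8 genes with the highest r were H2-DMb1, Lcp2, Ptprc, Cd53, Tyrobp, Clec7a, Ctss and Vsig4, with r from 0.62 down to 0.58. H2-DMb1 is the DM beta chain, Ctss the protease that trims the invariant chain, Ptprc the leukocyte antigen CD45, and Vsig4 a Kupffer cell complement receptor. Over 45 strain differences they were Ptpn18, Cd52, Trpt1, Cfp, Csf1r, C1qa, Themis2 and Tmem88, with r from 0.81 to 0.74. Csf1r is the macrophage growth factor receptor and Cfp is properdin of the complement system. Over residuals of 354 arrays they were Calhm6, Cd52, Irf8, Cd5l, Cyba, H2-DMb1, Cxcl9 and C1qa, with r from 0.64 to 0.58. Irf8 is a transcription factor of myeloid cells, and Cxcl9 a chemokine induced by interferon gamma. When those arrays were left out, 1 of the 8 genes was again among the 8 highest for Control means, 6 for differences and 5 for residuals.

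Among marker lists, the member mean followed Kupffer cell and macrophage markers most closely in Control means and in differences. Its r with the mean of that list was 0.58 over Control means, 0.73 over differences and 0.54 over residuals. For T and NK cell markers r was 0.45, 0.68 and 0.48, for sinusoidal endothelium markers 0.15, 0.60 and 0.45, and for B cell markers 0.27, 0.38 and 0.17. For hepatocyte markers r was 0.13, -0.26 and -0.37. Stab2 alone had r of 0.09 over Control means, 0.70 over differences and 0.20 over residuals. Brightness differed between the lists, so that these r cannot be ranked on equal terms. Of Kupffer cell and of sinusoidal endothelium markers, 0 of 14 and 0 of 13 lay under the array's median in most arrays. For B cell and for T and NK cell markers it was 8 of 13 and 8 of 12. The r of the dendritic cell list, with 6 of 9 under it, is not given here. These lists share arrays with the members, and their part in the class II values was not tested.

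**Figure D5:**
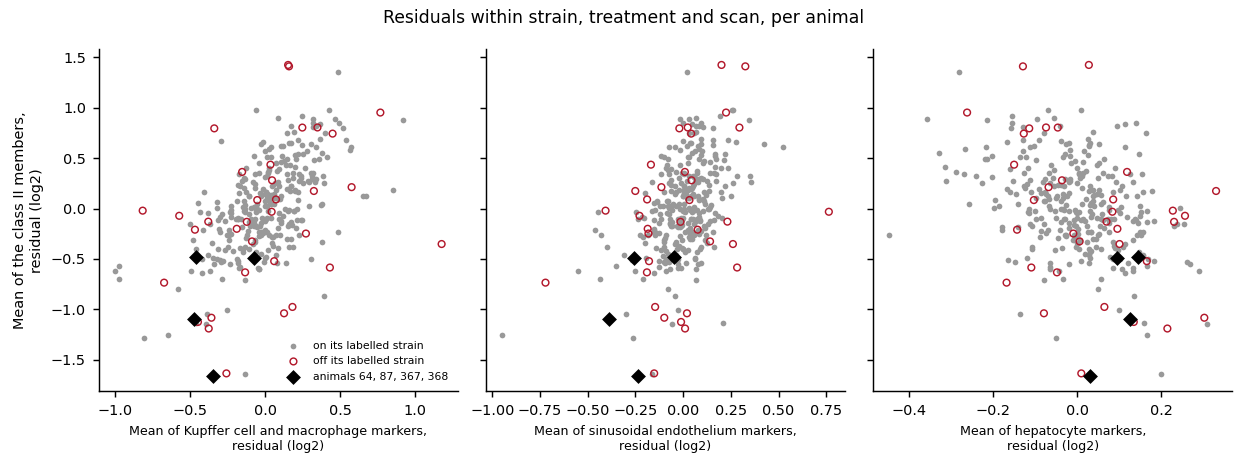
Residual of the member mean (vertical) against the residual of the mean of 3 marker lists (horizontal), log2, 1 point per animal, after strain, treatment and scan were removed. The cloud rises with Kupffer cell markers (r = 0.54) and with sinusoidal endothelium markers (r = 0.45) and falls with hepatocyte markers (r = -0.37). Black diamonds are animals 64, 87, 367 and 368, and hollow red points are arrays off their labelled strain.

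The other genes of the pathway and the cell markers, which are no members, were tested in the averaged contrast with limma and Benjamini-Hochberg adjustment over 14125 genes. Of 133 such genes tested, 0 were called higher and 1 lower, against 0.326% and 0.17% of all genes. The lists were chosen with earlier results of these data known, so this count and the adjusted p below are no independent test. The called gene was Stab2, at 7.60 ± 0.54 (SD, n = 175) with tolvaptan and 7.79 ± 0.41 (n = 179) in Control. Its averaged difference was -0.19 ± 0.04 (SE, adjusted p = 0.00104 with limma), negative in 33 of 45 strains, and -0.17 (adjusted p = 0.004 with limma) without the arrays off their strain. The call was lost without scan 2, at -0.13, without replicate 1 of each group, at -0.18, with strains as the unit, at -0.19, and in scans 1, 4 and 5 alone, at -0.17, -0.27 and -0.30, and in scan 2 alone the value was 0.00569. limma's F test for a difference that varies by strain called 3 of 14125 genes, or 0.0212%, of which 1 is in these lists, Stab2, with an adjusted p of 0.00212.

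None of the 6 other class II chain genes passed. H2-Ea differed by -0.13 ± 0.06 (limma adjusted p = 0.471), H2-Oa, the alpha chain of the DM-inhibiting DO molecule, by -0.050 ± 0.032, and H2-Ob, its beta chain, by 0.011 ± 0.048. H2-DMb1 differed by -0.005 ± 0.046, H2-DMb2 by -0.003 ± 0.022 and H2-Eb2 by -0.001 ± 0.029. None of the 10 genes of peptide loading and turnover passed, 7 being positive, with Ifi30, the lysosomal thiol reductase, at 0.069 ± 0.045 and Mif, a Cd74 ligand, at 0.064 ± 0.057. Of 10 class II transcription genes 0 passed, with Nfya, a subunit of the Y box factor, at -0.057 ± 0.036 and Irf1 at -0.043 ± 0.047. Of 9 MHC class I genes 0 passed and 8 were positive, with the immunoproteasome subunits Psmb8 and Psmb10 at 0.10 ± 0.05 and 0.081 ± 0.039. Of 14 interferon gamma genes 0 passed and 12 were positive, with the guanylate binding protein Gbp7 at 0.11 ± 0.05 and the immunity-related GTPase Irgm1 at 0.055 ± 0.047.

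Cell markers showed the same absence of calls apart from Stab2. B cell markers had a median of -0.005 over 13 genes, with Cd79a at -0.073 ± 0.070 and Cd37 at 0.063 ± 0.029. Kupffer cell and macrophage markers had a median of -0.010 over 14, with Cd68 at 0.14 ± 0.06 and the iron exporter Slc40a1 at -0.094 ± 0.047. Dendritic cell markers had a median of 0.019 over 8, with Batf3 at 0.074 ± 0.037 and Btla at -0.050 ± 0.028. Monocyte markers had a median of 0.023 over 6, with Plac8 at 0.072 ± 0.050 and Cx3cr1 at 0.029 ± 0.022. T and NK cell markers had a median of 0.008 over 11, with Ccl5 at 0.094 ± 0.051 and Klrd1 at 0.063 ± 0.025. Neutrophil markers had a median of 0.001 over 7, with S100a8 at 0.16 ± 0.09 and S100a9 at 0.064 ± 0.094. Bile duct markers had a median of 0.002 over 5, with Krt19 at -0.13 ± 0.08 and Pkhd1 at -0.096 ± 0.045. Hepatocyte markers had a median of 0.007 over 7, with Fgb at 0.062 ± 0.037 and Tat at -0.035 ± 0.060. The 6 members had a median of -0.079, and the median over all genes was 0.00027.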

How the data were processed

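The authors deposited log2 signals, normalized by RMA with Affymetrix Expression Console per the submitters' processing notes. Versions are not given in the sources used here. Symbols came from the platform annotation, with 1 symbol for 27691 of 42597 probe sets, and RefSeq GRCm38.p6 gave names and promoters. For each gene, the brightest of the probe sets with that symbol alone was used, and genes over the array median on 4 or more arrays were tested, 14125 in all. limma 3.58.1 in R 4.3.3 fitted 1 mean per strain and treatment plus scan date, with two-sided tests and p-values adjusted by Benjamini-Hochberg at 0.05. The steps were tested on simulated data. Arrays have no read depth, and their number limits precision. Arrays correlating under 0.5 with their labelled strain over 500 probe sets were called off their strain, with 34 also for 300 and for 1000 probe sets. No label was changed. The members and lists were chosen with earlier results of these data known. The text names every member probe set, the 8 genes most like the member mean by 3 measures, every other class II chain, and per list the called genes or the 2 with the largest averaged difference. Other named genes, and the limits for H2-Eb1 and H2-Ea, were chosen after their values were seen. Named strains have the 3 lowest or 3 highest Cd74 differences, with and without the arrays off their strain, and AU8027 was added. Replicate numbers follow accession order and pair no animals.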

Additional observations from a re-analysis of the deposited data

Results flagged for a closer look

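Within the named strains, 102 groups of 4 animals (a gene in a strain and treatment) were screened for an animal far from the other three, and 8 were found, where chance gives about 1 in 20. That rate is for independent groups, whereas these groups share animals and come from strains chosen on Cd74. The count is therefore no test. In OR5035, tolvaptan animal 248 stood above the others for Cd74, at 6.85 against 5.98 to 6.12, and for H2-Eb1, at 4.5 against 3.0 to 3.22. In IL16188, Control animal 142 had Ciita at 2.06 against 2.49 to 2.53, and tolvaptan animal 145 had H2-Ab1 at 7.02 against 8.20 to 8.32. In OR13421, Control animal 114 had H2-Eb1 at 7.53 against 5.68 to 5.76. In AU8002, Control animal 22 had H2-Aa at 6.56 against 5.28 to 5.46. In AU8033, tolvaptan animal 88 had Cd74 at 5.84 against 4.62 to 4.8. In AU8027, tolvaptan animal 305 had H2-DMa at 6.79 against 7.68 to 7.83. Some of the animals compared against are arrays off their strain. They are 141 in IL16188 Control, 111 and 112 in OR13421, 21 and 24 in AU8002, and 86 in AU8033.

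For Cd74, limma's F test of strain dependence gave an adjusted p of 0.0275. The gene was chosen with this value known, so it is a description of the choice and no test. The value was 0.00252 without the arrays off their strain, 0.692 in the 26 strains with none, 0.115 without animals 64, 87, 367 and 368, 0.263 without scan 1, and 0.147 to 0.507 when each replicate was left out. The endothelial gene Stab2, which is no member, had an adjusted p of 0.00212 by limma's F test, 7.27e-05 without the arrays off their strain, 0.71 in the 26 strains with none, 0.00469 without those 4 animals, 0.15 without scan 1, and 0.00336 to 0.228 when each replicate was left out. Its marker list was also chosen with earlier results of these data known.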

How the results depend on the processing

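The averaged differences of the 6 members changed sign in 15 of 118 comparisons of a probe set and a setting, among them H2-Ab1 at 0.046, H2-Eb1 at 0.073 and H2-DMa at 0.086 without scan 2. Of 650 differences in single strains, 22 moved by more than the residual SD. The runs on scans 2, 3, 4 and 5 alone and without animals 64, 87, 367 and 368 were chosen after seeing the data. The list genes called in the averaged contrast numbered 1 with all arrays, 0 without scan 2, 0 in scans 1, 2, 4 or 5 alone, 0 with strains as the unit, and 0 to 2 when each replicate was left out. Stab2 was 0.00569 in scan 2 alone, the reverse of its sign elsewhere. List genes, and members chosen with it known, whose difference varied by strain numbered 2 with all arrays, 4 without the arrays off their strain, 0 in the 26 strains with none, 0 without scan 1, 9 without scan 2, 1 without the 4 animals, and 0 to 1 when each replicate was left out. Over all genes, 46 were higher, 24 lower and 3 strain dependent; without scan 2 the counts were 1, 0 and 455, without the arrays off their strain 19, 25 and 26, and in the 26 strains 140, 160 and 3. They were 75, 83 and 11 without scan 1, 72, 44 and 5 without the 4 animals, 55, 40 and 5 after repeated quantile normalization, and 11 and 7 (averaged only) with strains as the unit. Leaving out each replicate gave 3 to 81 higher, 0 to 81 lower and 1 to 21 strain dependent. The Control range, highest minus lowest strain mean, of H2-Ab1 was 5.0 without the arrays off their strain, 8.36 without scan 2 and 8.36 in scan 1 alone. In scan 1 alone it was 3.14 for Cd74, 4.53 for H2-Aa and 3.89 for H2-DMa, and 3.89 for H2-DMa without scan 2. Without the arrays off their strain the Cd74 difference was -1.50 in AU8033 and 0.94 in AU8024. Of the 8 genes most like the members, 1 by Control means and 5 by residuals were shared without those arrays, 4 by Control means with Spearman's correlation, and 5 by differences without the 4 animals. No paired analysis was possible because replicate numbers follow accession order and the labels pair no animals. The cause of these changes was not tested.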

Other observations

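H2-DMb1, the partner of H2-DMa, had an r of 0.62 with the member mean over Control strain means, the highest of all genes by Pearson's r with all arrays. Lcp2 led by Spearman's correlation, at 0.64 against 0.61, and Ptpn18 without the arrays off their strain, at 0.61 against 0.58. Strain accounted for 40.9% of its Control variance, against 50.5% for H2-DMa. Its fitted strain differences ran from -0.63 in AU8021 to 0.70 in OR477.

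The 2 probe sets of H2-Ob had r of -0.17 over 45 Control strain means and 0.059 over the residuals of 354 arrays. The H2-Ab1 and H2-DMa probe sets had r of 0.82 to 0.87 over the residuals.

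Tolvaptan animal 236 of OR3154 had a member mean of 3.93, the third lowest of 354 arrays, and H2-Ab1 at 3.35. Its Cd5l was 7.77 and its C1qa 6.87, while its Stab2 was 7.19.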
